A study of Mus musculus with 20 samples.

Results

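Wild type endothelium of 2 mouse muscles was compared over 10 of the 20 libraries in the series, 5 of soleus and 5 of extensor digitorum longus, chosen by their titles alone. Each library held RNA of endothelial cells, the cells that line blood vessels, sorted as CD31+ CD45- from the soleus, which the titles call oxidative, or from the extensor digitorum longus (EDL), which they call glycolytic. All mice were C57BL/6N. The wild type mice lacked Cre and were littermates of mice with an endothelial-specific Atf4-/- (Atf4 ECKO), and both genotypes had received 1 mg tamoxifen a day for 5 days from an age of 8 to 10 weeks, followed by at least 7 days without it. By their labels the wild type groups thus differed in muscle alone, and both carried the tamoxifen exposure of the deleted animals. The 5 soleus and 5 EDL libraries of Atf4 ECKO mice form a comparison of their own, which shares no library with that of wild type. They were fitted together with the wild type libraries, so the spread behind the wild type p-values was estimated from all 20 libraries. Otherwise they serve to show where the difference between muscles was unlike in the other genotype. The genotypes also differed in sex-linked RNA, as given below, which cannot be told apart from the deletion. Cre driver, sex and the count of animals per library are not in the labels, so p-values here measure only how far libraries of a group lay apart, which may be a technical spread.

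Soleus fibres contract slowly and live on mitochondrial respiration, whereas most fibres of the EDL are fast and rely more on glycolysis. Capillary endothelium delivers oxygen, glucose and fatty acids to either kind, and sprouts when demand stays high. ATF4 is the main transcription factor of the integrated stress response: when the initiation factor eIF2α is phosphorylated, most translation slows, Atf4 mRNA is translated better, and ATF4 raises genes for amino acid synthesis, amino acid import and tRNA charging. ATF3 is one of its targets and belongs to the same family. The title of the series concerns endothelial cells marked by both factors, and the muscle comparison in wild type mice asks how sorted endothelial cells of these muscles differ. Every library was made after sorting, so levels within the intact muscle were not measured.

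The wild type libraries held 10604619 to 21673753 counts summed over genes. Soleus and EDL lay apart on the leading principal component, which held 55.6% of the variance. The second, with 9.67%, set soleus libraries 3 and 5 apart from soleus libraries 1, 2 and 4. Those 2 libraries held more RNA of tendon and connective tissue: Thbs4, a tendon matrix protein, stood at 7.32, 7.78, 39.4, 6.34 and 54.9 CPM (counts per 1000000 of normalised library size) in soleus libraries 1 to 5 against at most 3.73 CPM in EDL, and Col1a1 at 30.99, 24.8, 77.4, 28.2 and 90.5 CPM. Results were therefore also computed with soleus libraries 1, 2 and 4 alone. The 16 endothelial markers summed to 14980.0 to 15650.0 CPM in EDL and 12760.0 to 13700.0 CPM in soleus, and 10 of them were lower and 1 higher in soleus (median log2 fold change -0.22). RNA of other cells moved with muscle. Of 15 tested immune markers 14 were higher in soleus (summed 38.04 to 44.4 CPM in EDL, 307 to 404 CPM in soleus). None of these was at 0 counts in either muscle. The immune markers too low to be tested had few counts over the 5 libraries of a muscle. The T cell marker Cd3e had 3 in EDL and 1 in soleus, and so did the neutrophil gene S100a9. S100a8 had 15 and 9, Cd79a 19 and 13, and Aif1 1 and 4. Fibroblast markers were higher in 9 of 11 (summed 80.5 to 93.3 against 165 to 378 CPM) and markers common to muscle fibres in 8 of 10 (36.03 to 38.1 against 86.6 to 173 CPM). Red cell genes were higher in 5 of 5, with the largest sums of these groups (3782 to 4004 against 4393 to 6741 CPM). Mural markers, of the pericytes and smooth muscle cells around vessels, were lower in 6 of 12 and higher in none (922 to 938 against 642 to 753 CPM). Fewer cells of a type and less RNA per cell cannot be told apart in such bulk samples. Atf4, the gene deleted in the other genotype, stood at 7.37 ± 0.99 CPM in EDL and 8.28 ± 0.35 CPM in soleus of Atf4 ECKO mice (SD, n = 5 each).

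**Figure D1:**
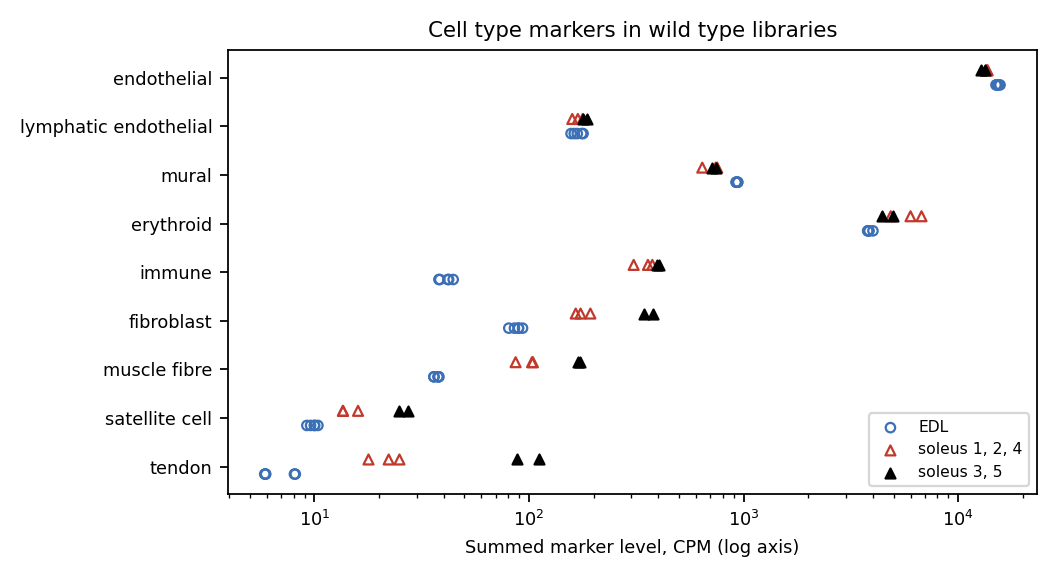
Summed CPM of marker genes for 9 cell types (horizontal, log axis), 1 point per wild type library; circles are the 5 EDL and triangles the 5 soleus libraries, and soleus libraries 3 and 5 are filled black. Immune markers lay between 38.04 and 44.4 CPM in EDL and between 307 and 404 CPM in soleus, and the tendon sum reached 111 CPM in the highest soleus library.

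Between the muscles 4520 of 13971 tested genes differed (32.4%, edgeR quasi-likelihood test, adjusted p below 0.05), 2295 higher (16.4%) and 2225 lower in soleus (15.9%). A rise or a fall below is that of soleus against EDL and passed this test. Large differences were mostly rises, since 629 genes rose at least 2-fold (4.5%) and 121 fell at least 2-fold (0.866%). All 5 soleus libraries lay above all 5 EDL libraries for 1695 genes (12.1%) and below them for 1532 genes (11%). The median log2 fold change over all tested genes was -0.00332, and the median of each gene list below is to be read against it. Changes of single genes are log2 fold changes of soleus over EDL with their SE (n = 5 per group), and CPM values listed for a muscle are those of its libraries 1 to 5 in that order.

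Atf4, Atf3 and most genes of the stress response they belong to were higher in soleus. Atf4 (chromosome 15, 80255184 to 80257541, plus strand, GRCm38) stood at 265, 259, 280.4, 243 and 261 CPM in EDL and 552, 552, 541, 588 and 534 CPM in soleus, a log2 fold change of 1.08 ± 0.048, adjusted p = 1.6e-15. The groups of Atf4 did not overlap, and soleus library 5 came closest to the EDL range. Atf3 (chromosome 1, 191170296 to 191218039, minus strand) stood at 78.6, 74.4, 76.5, 79.3 and 73.4 CPM in EDL and 373, 381, 266, 366 and 249 CPM in soleus, a rise of 2.09 ± 0.090, adjusted p = 6.5e-16. All soleus values of Atf3 lay above the highest EDL value, furthest in library 2. Soleus libraries 3 and 5 had the 2 lowest soleus values of Atf3, still above every EDL library. For both genes the exact permutation p over the 10 libraries was 0.0079, 2-sided and the smallest that 5 against 5 allow. Other members of the stress response list rose too: Nupr1, a small chromatin-associated stress protein (2.64 ± 0.14), and Stc2, a secreted glycoprotein of the stanniocalcin family (2.14 ± 0.19). Chac1, which breaks down glutathione, read 16.4, 17.2, 13.2, 14.6 and 14.8 CPM in EDL and 46.5, 61.1, 58.3, 58.03 and 59.2 CPM in soleus and rose by 1.89 ± 0.097, adjusted p = 2.9e-14. Chac1 thus separated the muscles in every library, least in soleus library 1. The list as a whole rose in 14 of 20 tested members and fell in 2, with a median of 1.23. The 2 that fell were Ddit4, an mTORC1 inhibitor (-0.40 ± 0.091), and Eif2ak1, the heme-regulated kinase that phosphorylates eIF2α (-0.22 ± 0.063). The other eIF2α kinases Eif2ak2, Eif2ak3 and Eif2ak4 did not pass (-0.17 ± 0.093, -0.16 ± 0.084 and -0.10 ± 0.099). Exons overlap between Eif2ak1 and Aimp2, so the split of their counts is uncertain.

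Genes for amino acid synthesis and import were mostly higher, and so were those of cytosolic but not of mitochondrial tRNA synthetases. Of 20 synthesis and one-carbon genes 16 rose and none fell (median 1.34), and 13 rose at least 2-fold. The largest rise in that list was that of Cth, which makes cysteine from cystathionine, at 0.621, 1.69, 1.31, 0.823 and 1.25 CPM in EDL and 10.98, 13.2, 14.5, 13.8 and 14.04 CPM in soleus (3.50 ± 0.24, adjusted p = 6.6e-12). No soleus library reached into the EDL range of Cth. Cbs, the enzyme just before it in the pathway, stood at 0.664 and 0.462 CPM and did not pass. Aldh1l2, a mitochondrial folate enzyme (2.73 ± 0.21), and Psat1 and Psph, which complete serine synthesis (1.58 ± 0.085 and 1.51 ± 0.10), rose as well. The cytosolic folate enzyme Mthfd1 (0.03 ± 0.081) and the thymidylate synthase gene Tyms (-0.05 ± 0.097) did not pass. Amino acid transporters rose in 13 of 20 (median 0.77). Slc7a5, the light chain of the large neutral amino acid transporter, rose by 1.66 ± 0.19, and its heavy chain Slc3a2 by 0.45 ± 0.096 from 474 CPM. Slc6a6, the taurine transporter, rose by 0.76 ± 0.078. Cytosolic tRNA synthetases rose in 14 of 20 and fell in 1 (median 0.73), whereas of 17 mitochondrial synthetases 0 rose and 2 fell (median -0.15, with 0 to 3 falls when any 1 library was left out). Exons overlap between Aldh1l2 and D10Wsu102e and between Psph and Cct6a, so the split of these counts is uncertain.

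The promoters of several of these genes carry the letters that ATF4 pairs with C/EBP factors to bind, and the following windows show where. Promoter sequences are those of RefSeq on GRCm38.p6, 250 bases before to 50 after each annotated start, for 10227 of the tested genes. TGATGNAA on either strand was found in 2.73% of those genes and in 4.51% of all genes with a window. It was found in 5 of 12 cytosolic tRNA synthetase genes with a window (Aars, Gars, Iars, Tars and Yars), in 5 of 18 stress response genes, in 3 of 16 synthesis genes and in 2 of 13 transporter genes. Of lists described below, the small nucleolar host RNAs, which mostly rose, had it in 0 of 9. The cholesterol genes, which mostly fell, had it in 1 of 19 (Idi1, 5.26%). Among all genes that rose 82 of 1705 had it (4.81%), and among all genes that fell 35 of 1744 (2.01%). Among genes that rose at least 2-fold 31 of 441 had it (7.03%). These matches are letters in a window and no measurement of binding, and shares over lists this small are descriptions. The stretches below lie upstream of the annotated start, run 5′ to 3′ on the strand of the gene, and have the match in capitals. Of the 5 genes shown, Slc7a11 alone holds the letters 2 times.
Asns (GRCm38.p6 chr6:7693210-7693262, minus strand): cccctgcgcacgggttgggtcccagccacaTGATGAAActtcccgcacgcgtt
Chac1 (GRCm38.p6 chr2:119351019-119351086, plus strand): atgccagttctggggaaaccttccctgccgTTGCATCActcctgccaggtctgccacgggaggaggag
Atf3 (GRCm38.p6 chr1:191183406-191183473, minus strand): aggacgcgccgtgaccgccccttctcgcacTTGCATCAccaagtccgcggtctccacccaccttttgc
Nupr1 (GRCm38.p6 chr7:126625543-126625610, minus strand): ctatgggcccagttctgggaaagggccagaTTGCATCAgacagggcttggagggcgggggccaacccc
Slc7a11 (GRCm38.p6 chr3:50443623-50443709, minus strand): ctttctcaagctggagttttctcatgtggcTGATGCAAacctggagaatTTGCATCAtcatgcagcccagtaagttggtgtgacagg
The match began 23 bases before the start in Asns and 193 bases before it in Chac1, where it reads on the other strand. The 5 genes rose by 1.26 ± 0.046 (Asns), 1.89 ± 0.097 (Chac1), 2.09 ± 0.090 (Atf3), 2.64 ± 0.14 (Nupr1) and 1.40 ± 0.095 (Slc7a11).

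Genes for making ribosomes rose together with those for amino acid supply. The host RNAs of small nucleolar RNAs are spliced to release guides for rRNA modification, and their own transcripts are short-lived when translation runs. Of 11 tested host RNAs 10 rose and none fell (median 0.87). Gas5 (chromosome 1, 161034422 to 161038539, plus strand) read 80.6, 84.95, 85.5, 87.2 and 96.7 CPM in EDL and 136, 145, 150.0, 148 and 139 CPM in soleus (0.72 ± 0.054, adjusted p = 4.2e-11). For Gas5 the ranges were apart, and soleus library 3 stood furthest from EDL. Snhg12 read 6.12, 5.19, 6.23, 7.19 and 7.33 CPM in EDL and 17.2, 21.1, 23.5, 22.6 and 23.4 CPM in soleus (1.75 ± 0.14, adjusted p = 2.1e-10). Each soleus value of Snhg12 was above each EDL value, with library 3 the highest. Both separated the muscles without overlap, and Snhg15 (1.63 ± 0.090), Snhg1 (1.53 ± 0.11) and Zfas1 (1.46 ± 0.092) rose to a similar size. Ribosome biogenesis genes rose in 17 of 26 and fell in none (median 0.33). Among them were Gnl3, the nucleolar GTPase nucleostemin (29.5 to 55.2 CPM, 0.90 ± 0.085), Nop14 and Rrp12 of the small-subunit pathway (0.75 ± 0.069 and 0.73 ± 0.099), the core box C/D protein gene Nop58 (0.58 ± 0.069), Npm1, which encodes nucleophosmin (0.38 ± 0.054), and Ncl, which encodes nucleolin (0.46 ± 0.063). Cytosolic ribosomal protein genes rose in 23 of 44 and fell in none, by small amounts (median 0.13, largest 0.40 for Rpl34). Mitochondrial ribosomal protein genes went the other way, with 17 lower and 4 higher of 60 (median -0.06, and 11 to 16 lower when any 1 library was left out). Ribosomal protein genes have many near-identical processed copies in the genome, so their counts are uncertain. Exons overlap between Zfas1 and Znfx1 and between Gnl3 and Pbrm1, so the split of these counts is uncertain.

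In Atf4 ECKO no member of these 3 translation lists rose in soleus. The ECKO medians of the same lists were -0.61 for the host RNAs, with 7 of 11 lower, -0.25 for biogenesis, with 15 of 26 lower, and -0.15 for ribosomal proteins, with 25 of 44 lower. Of all tested genes 10.1% were called lower in ECKO and 8.31% higher. The interaction, which is the soleus minus EDL difference in wild type minus that in ECKO, passed for 9 of 11 host RNAs against 22.7% of all genes, with 1.44 ± 0.076 for Gas5 and 2.67 ± 0.12 for Snhg15 on the log2 scale.

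**Figure D2:**
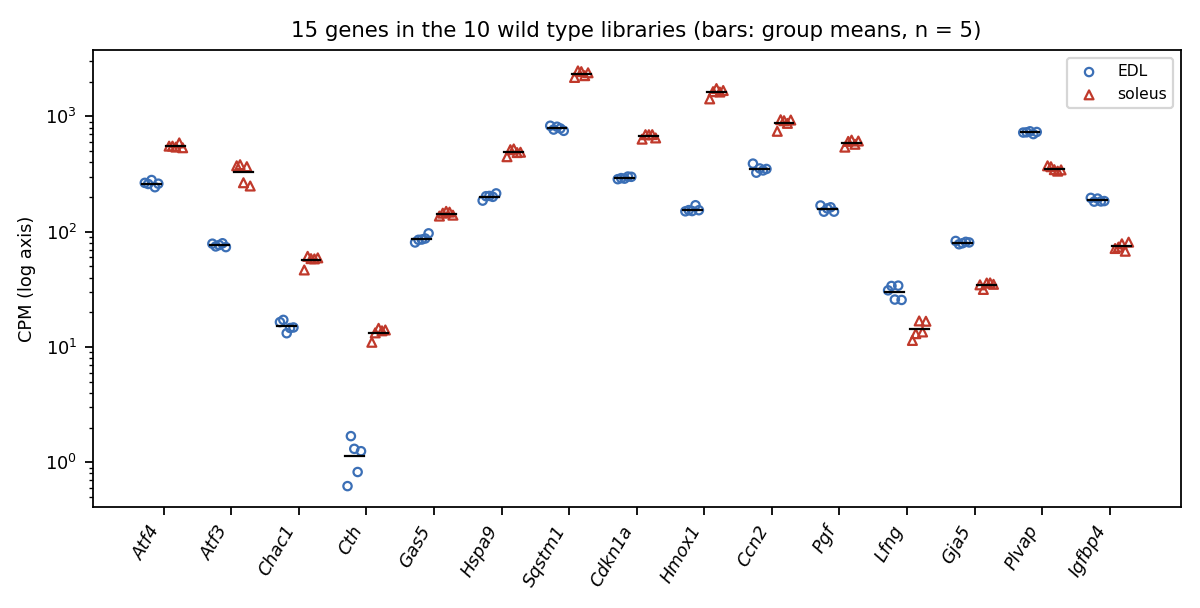
CPM of 15 genes in each of the 10 wild type libraries (vertical, log axis), EDL as circles and soleus as triangles, with the group mean as a bar. Atf4 lay at 243 to 280.4 CPM in EDL and 534 to 588 CPM in soleus, and none of the 15 genes had overlapping groups.

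Genes that handle misfolded and damaged protein moved both ways in the endoplasmic reticulum, in mitochondria and in the cytosol. In the endoplasmic reticulum, disulfide isomerases and lectin chaperones fell while the stress sensor genes Ern1 and Atf6 rose: of 20 genes 10 fell and 5 rose (median -0.19). The isomerase gene Pdia6 read 204, 215, 220.0, 202 and 228 CPM in EDL and 157, 147, 152, 136 and 141 CPM in soleus (-0.55 ± 0.043, adjusted p = 1.5e-10). The muscles did not share any part of their ranges of Pdia6, though soleus library 1 was nearest to EDL. Calr, which encodes calreticulin (-0.44 ± 0.060), Xbp1, the transcription factor of the IRE1 branch (-0.44 ± 0.079), Pdia4 (-0.39 ± 0.040) and Pdia3 (-0.32 ± 0.052) fell too. The 5 that rose were the sensors Ern1 (0.88 ± 0.17) and Atf6 (0.65 ± 0.064), the cochaperone gene Dnajb9 (0.53 ± 0.053), Herpud1, of the degradation machinery (0.32 ± 0.061), and Hspa5, which encodes BiP (0.31 ± 0.046). Hspa5 thus rose in the same libraries in which its partners Pdia6 and Calr fell. In mitochondria the Hsp70 gene Hspa9 stood apart at 186, 203, 204, 200.4 and 215 CPM in EDL and 446, 514, 522, 485 and 488 CPM in soleus (1.28 ± 0.048, adjusted p = 4.5e-17). In Hspa9 even soleus library 1, the lowest of the 5, was above all EDL libraries. Lonp1, a matrix protease, rose by 0.48 ± 0.070, while the chaperonin genes Hspd1 and Hspe1 did not pass (-0.01 ± 0.050 and -0.04 ± 0.072), nor did the protease gene Clpp (0.05 ± 0.059). Of 15 mitochondrial chaperone and protease genes these 2, Hspa9 and Lonp1, rose and 3 fell (median 0.05). When any 1 library was left out, 2 to 4 of them rose and 2 to 3 fell. Cytosolic heat shock genes rose in 7 of 19 and fell in 3. Hspa1a and Hspa1b, whose near-identical sequences make the split of their counts uncertain, rose by 1.72 ± 0.16 and 1.11 ± 0.23, and the small heat shock genes Hspb1 (-0.29 ± 0.066), Cryab (-0.56 ± 0.10) and Hspb8 (-0.73 ± 0.15) fell. Sqstm1, which encodes the autophagy receptor p62 (chromosome 11, 50199366 to 50210827, minus strand), read 829, 768, 813, 785 and 749 CPM in EDL and 2174, 2478, 2442, 2253 and 2386 CPM in soleus (1.57 ± 0.055, adjusted p = 9.6e-18). Sqstm1 was above the EDL range in all 5 soleus libraries, with library 2 the highest. Autophagy and lysosome genes rose in 11 of 31, Wipi2 (0.50 ± 0.057), Gabarapl1 (0.30 ± 0.050) and Ctsb (0.39 ± 0.045) among them, with a median of only 0.07. Exons overlap between Pdia3 and Catsper2, between Hspd1 and Hspe1, between Cryab and Hspb2, between Sqstm1 and Mrnip and between Ctsb and Fdft1, so the split of these counts is uncertain.

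Targets of p53, the damage-activated transcription factor, were higher in soleus. Of 18 genes 15 rose and 1 fell, with a median of 0.59. Cdkn1a, which encodes the cell cycle inhibitor p21, read 285, 291, 288, 301 and 299 CPM in EDL and 634, 693, 693, 694 and 649.6 CPM in soleus (1.20 ± 0.097, adjusted p = 2.1e-10). The groups of Cdkn1a did not overlap, and soleus library 1 came closest to the EDL range. Gadd45a, a growth arrest gene, read 10.6, 12.4, 11.9, 12.3 and 17.05 CPM in EDL and 69.3, 73.5, 83.8, 72.5 and 73.8 CPM in soleus (2.52 ± 0.10, adjusted p = 3.4e-16). All soleus values of Gadd45a lay above the highest EDL value, furthest in library 3. Mdm2, the ubiquitin ligase that holds p53 down (0.66 ± 0.058), Eda2r, a death receptor relative (0.92 ± 0.065), Aen, a nuclease (0.64 ± 0.074), and Trp53 itself (0.33 ± 0.054) rose less. The gene that fell was Sesn1 (-0.26 ± 0.080), which did not pass without soleus library 4 (adjusted p = 0.061). Of 15 genes of the Bcl2 family 5 rose and 3 fell (median 0.11). Its proapoptotic members moved both ways: Bid (0.59 ± 0.096) and Bax (0.31 ± 0.051) were among the rises, and the falls were Bok (-0.76 ± 0.10), Bik (-0.40 ± 0.10) and Bad (-0.32 ± 0.069). The survival genes Bcl2l1 and Mcl1, the 2 most abundant members, did not pass (-0.01 ± 0.087 and 0.11 ± 0.063), whereas another survival gene rose. The number of changed cell cycle genes moved with single libraries, among them soleus libraries 3 and 5, which held more tendon RNA. Of 28 cell cycle genes 6 rose and 5 fell. Rises numbered 2 without soleus library 3, 3 without library 5, 10 without library 4 and 2 without libraries 3 and 5. Falls numbered 3 without soleus library 4 and 3 without EDL library 3. The proliferation marker Mki67 stood at 0.569, 0.210, 7.12, 0.565 and 6.85 CPM in soleus libraries 1 to 5 and at most 2.08 CPM in EDL. Ccnd1, which encodes cyclin D1, fell by 0.33 ± 0.066 on the log2 scale. Exons overlap between Bid and Bcl2l13, between Bad and Gpr137 and between Ccnd1 and LTO1, so the split of these counts is uncertain.

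Heme oxygenase 1 and the ferritin genes rose, while iron handling genes as a list were evenly divided. Of 14 iron handling genes 4 rose and 4 fell (median -0.01), a list that does not hold Hmox1. Hmox1, heme oxygenase 1, opens heme and releases iron, and its product biliverdin is reduced by Blvra and Blvrb. Hmox1 read 150.1, 154, 151, 169 and 153 CPM in EDL and 1417, 1637, 1741, 1624 and 1675 CPM in soleus (3.38 ± 0.090, adjusted p = 3.8e-20). Hmox1 thus separated the muscles in every library, least in soleus library 1. The ferritin genes that store the iron were higher as well. Fth1 read 2362, 2536, 2489.6, 2486 and 2678 CPM in EDL and 4993, 5519, 5895, 5608 and 5382 CPM in soleus (1.13 ± 0.058, adjusted p = 3.5e-14), and Ftl1 rose by 0.60 ± 0.042. No soleus library reached into the EDL range of Fth1. Slc40a1, the iron exporter ferroportin, stood lower in level but rose by 1.13 ± 0.24, from 3.68 to 8.16 CPM, and Tfrc, the transferrin receptor, rose by 0.44 ± 0.12. Blvra fell by 0.40 ± 0.069 on the log2 scale, and Steap4, a metalloreductase (-0.94 ± 0.14), the ferritin receptor Ncoa4 (-0.25 ± 0.046) and the iron-sensing gene Aco1 (-0.19 ± 0.058) fell too. Slc40a1, Hmox1, Fth1 and Ftl1 are also abundant in macrophages, and the summed immune markers rose in the same libraries as given above; their part in these results was not tested. The targets of NRF2, which answers electrophiles, did not move as a block, with 9 higher and 4 lower of 23 (median 0.08). Txnrd1, thioredoxin reductase (0.77 ± 0.052), Gclm and Gclc, which make glutathione (0.70 ± 0.058 and 0.51 ± 0.10), and Taldo1 (0.37 ± 0.070) rose, while Nqo1 (-0.71 ± 0.057), Tkt (-0.40 ± 0.040) and G6pdx (-0.31 ± 0.087) fell. The metal-binding genes Mt1 and Mt2 rose, Mt1 at 82.8, 78.3, 77.9, 77.01 and 78.1 CPM in EDL and 217, 233, 269.6, 235 and 247 CPM in soleus (1.61 ± 0.074, adjusted p = 2.9e-15) and Mt2 by 1.08 ± 0.089. For Mt1 the ranges were apart, and soleus library 3 stood furthest from EDL. Exons overlap between Gclm, Gm17494 and Gm6061 and between G6pdx and Ikbkg, so the split of these counts is uncertain.

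Early response genes rose, while flow-responsive genes had no common direction. Immediate early genes rose in 24 of 26 and fell in none (median 0.91). Beyond Fos itself, rises were those of Fosb (2.92 ± 0.096), Fosl1 (2.30 ± 0.13) and Junb (1.62 ± 0.081), and Dusp1, the most abundant of the list, did not pass (0.20 ± 0.10). Laminar flow raises the transcription factor genes Klf2 and Klf4. Klf2 read 646, 837, 659, 819.6 and 683 CPM in EDL and 678, 611, 483, 791 and 414 CPM in soleus, did not pass and had overlapping groups, and Klf4 did not pass (-0.11 ± 0.092). Soleus libraries 3 and 5 again gave the lowest Klf2 values. Klf6 (0.38 ± 0.052) rose and Klf10 fell (-0.45 ± 0.062). Of 12 shear-responsive genes 6 fell, Aqp1, Ptgs1 and Nos3 among them, and 4 rose, led by Thbd (0.58 ± 0.070), although 2 rose without soleus library 2. Targets of the mechanosensitive factors SRF and YAP rose in 8 of 24 and fell in 3 (median 0.05). Ankrd1, a stretch-induced nuclear ankyrin protein, read 13.7, 17.4, 15.8, 13.8 and 16.3 CPM in EDL and 73.9, 88.3, 84.1, 73.2 and 80.8 CPM in soleus (2.37 ± 0.18, adjusted p = 4.8e-11). Each soleus value of Ankrd1 was above each EDL value, with library 2 the highest. Ccn2, a matricellular protein, read 389, 325, 353, 339.5 and 349.7 CPM in EDL and 742, 934, 917, 869 and 929 CPM in soleus (1.32 ± 0.087, adjusted p = 4.5e-12), and Ccn1 rose by 0.40 ± 0.059. The muscles did not share any part of their ranges of Ccn2, though soleus library 1 was nearest to EDL. Both Ankrd1 and Ccn2 fell in soleus of Atf4 ECKO (-2.08 and -1.31), and the interaction passed (4.45 ± 0.24 and 2.63 ± 0.12). The cytoskeletal targets Actb (0.02 ± 0.034), Vcl (-0.04 ± 0.046) and Tagln (-0.02 ± 0.13) did not pass in wild type. Exons overlap between Fosl1 and Ccdc85b, between Junb and Prdx2, between Dusp1 and Ergic1, between Ccn2 and Gm15270, between Vcl and Ap3m1 and between Tagln, Gm48529 and Pcsk7, so the split of these counts is uncertain.

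Several angiogenic ligands changed, whereas the VEGF receptors did not pass. Of 14 VEGF ligands, receptors and coreceptors 3 rose and 4 fell (median -0.09). The VEGF receptors Kdr, Flt1 and Flt4 and the coreceptor Nrp1 did not pass (0.07 ± 0.061, -0.07 ± 0.055, -0.03 ± 0.050 and -0.11 ± 0.078). Pgf, placental growth factor, read 169, 149, 159, 163 and 149 CPM in EDL and 540.5, 606, 622, 573 and 611 CPM in soleus (1.91 ± 0.12, adjusted p = 2.6e-12). In Pgf even soleus library 1, the lowest of the 5, was above all EDL libraries. Vegfc, the lymphangiogenic ligand (-0.56 ± 0.11), and Sema3g, a repellent ligand of arterial endothelium (-0.72 ± 0.11), fell. Vegfa, the main angiogenic ligand, stood at low levels and rose from 0.289 to 1.28 CPM (1.97 ± 0.47). Vegfb fell by 0.75 ± 0.22 on the log2 scale at 4.89 and 2.86 CPM, and its groups overlapped. Apelin, Apln, a tip cell ligand, rose from 246 to 420.0 CPM (0.77 ± 0.099), and its receptor Aplnr did not pass (-0.13 ± 0.15). Esm1, a tip cell proteoglycan, rose by 0.64 ± 0.097. Notch genes, which hold sprouting back and set arterial fate, were lower in 8 of 18 and higher in 3 (median -0.15). Lfng, a glycosyltransferase that tunes the receptors, read 30.97, 33.8, 25.8, 34.03 and 25.6 CPM in EDL and 11.4, 13.04, 16.8, 13.5 and 16.7 CPM in soleus (-1.07 ± 0.11, adjusted p = 2.3e-08). Lfng was below the EDL range in all 5 soleus libraries, with library 1 the lowest. The ligand Dll1 read 141, 129, 144, 147 and 128 CPM in EDL and 88.7, 84.8, 61.04, 85.004 and 58.97 CPM in soleus (-0.87 ± 0.091, adjusted p = 2.8e-08), lowest in soleus libraries 3 and 5. The groups of Dll1 did not overlap, and soleus library 1 came closest to the EDL range. The targets Nrarp (-0.72 ± 0.061) and Hey1 (-0.71 ± 0.091), the ligand Dll4 (-0.36 ± 0.048) and the receptor Notch1 (-0.20 ± 0.062) fell, the last not without EDL library 1 (adjusted p = 0.060). Against them Hes1, another target, rose (0.70 ± 0.096). In the TGF-β and BMP pathway 6 of 27 genes fell and 5 rose. Tgfbr3, the coreceptor betaglycan, read 129, 127, 118, 119 and 118 CPM in EDL and 61.2, 57.8, 63.1, 68.9 and 74.9 CPM in soleus (-0.90 ± 0.066, adjusted p = 2.8e-11). All soleus values of Tgfbr3 lay below the lowest EDL value, furthest in library 2. The receptors Tgfbr2 (-0.34 ± 0.082), Acvrl1 (-0.26 ± 0.047) and Eng (-0.32 ± 0.043) and the target Id1 (-0.39 ± 0.092) fell, while the feedback gene Smad7 (0.38 ± 0.10) and Skil (0.64 ± 0.075) rose. Tgfbr3, Tgfbr2 and Id1 rose in soleus of Atf4 ECKO (0.31, 0.31 and 0.55), with interactions of -1.21 ± 0.093, -0.64 ± 0.12 and -0.93 ± 0.13. Exons overlap between Nrarp and Gm38287, between Dll4 and Gm14207, between Notch1 and Gm13568 and between Eng and Fpgs, so the split of these counts is uncertain.

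Vessel type markers fell more often than they rose. General endothelial markers had a median of -0.22 themselves, and the part of that shift in the medians of Notch, vessel type, junction and caveolae genes was not tested. Arterial markers fell in 9 of 19 and rose in 4 (median -0.22, with 1 to 3 rises when any 1 library was left out). Gja5, an arterial gap junction gene (chromosome 3, 96904693 to 97077416, plus strand), read 83.1, 77.8, 79.3, 81.6 and 80.6 CPM in EDL and 34.6, 31.5, 35.9, 35.9 and 34.9 CPM in soleus (-1.21 ± 0.082, adjusted p = 6.6e-12). Gja5 thus separated the muscles in every library, least in soleus library 4. Gkn3, a gastrokine of arteriolar endothelium, read 13.1, 14.8, 13.2, 16.5 and 14.3 CPM in EDL and 6.67, 6.52, 6.56, 8.16 and 4.79 CPM in soleus (-1.14 ± 0.16, adjusted p = 2.2e-06). No soleus library reached into the EDL range of Gkn3. Among the arterial markers, Stmn2 rose (0.50 ± 0.14), and Sox17 (0.07 ± 0.070) and Alpl (0.01 ± 0.11) did not pass. Venous markers fell in 6 of 13 and rose in 2. Lrg1 read 191, 199, 201, 197 and 191 CPM in EDL and 70.4, 63.8, 66.2, 61.2 and 57.3 CPM in soleus (-1.62 ± 0.12, adjusted p = 3.3e-11). For Lrg1 the ranges were apart, and soleus library 5 stood furthest from EDL. The venous regulator Nr2f2 (-0.42 ± 0.091) and the ephrin receptor Ephb4 (-0.54 ± 0.051) fell, and the 2 that rose were the adhesion genes Icam1 (0.29 ± 0.070) and Sele (0.54 ± 0.16). Capillary markers were split, 8 of 16 lower and 5 higher. Aqp1, the water channel and the highest of them, read 11962, 11377, 10896, 11755 and 10166 CPM in EDL and 8522, 8059, 6741, 8691 and 7041 CPM in soleus (-0.52 ± 0.058, adjusted p = 5.9e-08), while Lpl, lipoprotein lipase (0.23 ± 0.075), and Btnl9 (0.35 ± 0.061) rose. Each soleus value of Aqp1 was below each EDL value, with library 3 the lowest. Of 30 lineage transcription factors 6 fell and 5 rose: Hhex (-0.59 ± 0.067), Lyl1 (-0.44 ± 0.060) and Meox2 (-0.38 ± 0.077) fell, Prdm1 (0.69 ± 0.11) and Mef2a (0.34 ± 0.058) rose, and the pan-endothelial factors Erg (0.06 ± 0.067) and Epas1 (-0.11 ± 0.054) did not pass. None of 24 positional genes rose, and 4 fell, Hoxb7 (-0.42 ± 0.090) and Hoxd8 (-0.30 ± 0.091) among them. The share that fell was near the 15.9% of all tested genes, and with the offset for transcript length 2 fell. Exons overlap between Gja5 and Gpr89, between Sox17 and Gm37587, between Lyl1 and Nfix and between Mef2a and Lysmd4, so the split of these counts is uncertain.

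Genes of junctions, caveolae and channels fell more often than they rose. Junction genes fell in 11 of 23 and rose in 2 (median -0.18). The tight junction gene Cldn5 (-0.44 ± 0.077), plakoglobin, Jup (-0.48 ± 0.057), Nectin2 (-0.66 ± 0.064) and F11r (-0.31 ± 0.043) fell, Cdh5, which encodes VE-cadherin, fell by 0.21 ± 0.057 on the log2 scale, and Cgnl1, a junctional adaptor, rose (0.98 ± 0.093). Caveolae and fenestra genes fell in 9 of 13 and rose in 1 (median -0.36). Plvap, the diaphragm protein of endothelial pores, read 723, 727, 742, 702 and 732 CPM in EDL and 372, 366, 345, 335 and 343 CPM in soleus. The muscles did not share any part of their ranges of Plvap, though soleus library 1 was nearest to EDL. The membrane remodelling ATPase gene Ehd4 fell by 0.93 ± 0.049 on the log2 scale, and Scarb1, a lipoprotein receptor of caveolae, by 0.67 ± 0.062 on the log2 scale. Cav1, the coat protein itself, fell by 0.29 ± 0.047 on the log2 scale, from 4301 to 3513 CPM, whereas the coat genes Cavin1 and Cavin2 did not pass (-0.09 ± 0.064 and -0.09 ± 0.078). Channels fell in 13 of 29 and rose in 1, or in 0 without soleus library 1 or EDL library 4 (median -0.26), the potassium channel Kcnq1 (-0.57 ± 0.092) and the calcium release genes Itpr3 (-0.45 ± 0.078), Orai1 (-0.38 ± 0.066) and Stim1 (-0.27 ± 0.059) among them. Kcnj8, which fell by 0.83 ± 0.15 on the log2 scale, is also a mural marker, and the mural sum fell in the same libraries; its part in that fall was not tested. Glycocalyx genes fell in 10 of 26 and rose in 6, 3 of them with soleus libraries 1, 2 and 4 alone. Has3, a hyaluronan synthase, fell from 14.6 to 7.29 CPM, and Cd44, its receptor (-0.59 ± 0.094), and Sdc1 (-0.48 ± 0.096) fell too. Exons overlap between Kcnq1 and Kcnq1ot1 and between Has3 and Chtf8, so the split of these counts is uncertain.

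Vasomotor genes had no single direction, 10 lower and 9 higher of 28. Npr3, the natriuretic peptide clearance receptor, read 6.83, 6.70, 7.62, 5.98 and 9.62 CPM in EDL and 2.68, 3.47, 2.30, 1.88 and 1.51 CPM in soleus (-1.67 ± 0.20, adjusted p = 2.9e-07). In Npr3 even soleus library 2, the highest of the 5, was below all EDL libraries. Npr1, the receptor that makes cGMP, fell from 237 to 146 CPM (-0.70 ± 0.048), and Nos3, endothelial nitric oxide synthase, fell less (-0.29 ± 0.056). S1pr1, the sphingosine phosphate receptor (-0.45 ± 0.044), and Ptgs1 (-0.63 ± 0.081) fell too. Adm, adrenomedullin, rose from 143 to 319 CPM (1.16 ± 0.067), and of its receptor parts Ramp3 rose (1.32 ± 0.14), Ramp2 fell (-0.33 ± 0.068) and Calcrl did not pass (-0.08 ± 0.074). The related peptide gene Adm2 rose from 1.08 to 14.2 CPM (3.70 ± 0.25). Gch1, which makes the cofactor of nitric oxide synthase, rose by 0.62 ± 0.061. Endothelin 1, Edn1, rose by 0.25 ± 0.084, which did not pass without soleus library 2 (adjusted p = 0.050). Coagulation genes were as evenly divided, 7 higher and 7 lower of 20. The anticoagulant receptors rose: Thbd, thrombomodulin, read 264, 268, 265, 278 and 269.6 CPM in EDL and 429.7, 412, 375, 416 and 381 CPM in soleus (0.58 ± 0.070, adjusted p = 2.7e-07), and Procr, the protein C receptor, rose by 0.81 ± 0.065. Thbd was above the EDL range in all 5 soleus libraries, with library 1 the highest. Plaur, the urokinase receptor (1.04 ± 0.070), and Thbs1 (0.62 ± 0.086) rose, and Vwf (-0.85 ± 0.052) and the plasmin assembly gene Anxa2 (-0.45 ± 0.045) fell. Procr, Thbs1 and Plaur fell in soleus of Atf4 ECKO (-0.88, -0.90 and -0.60), with interactions of 1.68 ± 0.096, 1.53 ± 0.12 and 1.64 ± 0.099. Exons overlap between Nos3, Atg9b and Gm15587 and between Ramp2 and Vps25, so the split of these counts is uncertain.

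Inflammatory genes rose in the chemokine arm and fell in the interferon arm. Chemokines and cytokines rose in 13 of 20 and fell in 3 (median 0.83). Cxcl2, a neutrophil attractant, rose from 4.44 to 30.96 CPM (2.78 ± 0.14), Csf3 from 0.420 to 6.95 CPM (4.00 ± 0.42) and Ccl7 from 0.321 to 4.27 CPM (3.58 ± 0.45), while Cx3cl1 (-0.49 ± 0.063) and Cxcl16 (-0.27 ± 0.068) fell. Of the NF-κB genes, Nfkbiz (1.90 ± 0.077) and Tnfaip3 (0.56 ± 0.088) rose and Nfkbia (0.04 ± 0.056) did not pass. Interferon response genes fell in 13 of 23 and rose in 2 (median -0.23), in contrast to ECKO, where 17 rose and 1 fell and the interaction passed for 19. Igtp, an interferon-induced GTPase, read 99.8, 93.97, 99.2, 91.6 and 102 CPM in EDL and 57.9, 59.8, 52.9, 59.5 and 57.3 CPM in soleus (-0.76 ± 0.049, adjusted p = 2.6e-12). The groups of Igtp did not overlap, and soleus library 2 came closest to the EDL range. Gbp4 (-0.51 ± 0.063), Bst2 (-0.51 ± 0.049), Rtp4 (-0.50 ± 0.053) and Ifit1 (-0.46 ± 0.068) fell, and Rsad2 (0.45 ± 0.068) and Irf1 (0.23 ± 0.045) rose. Class I presentation genes fell, from a heavy chain to a proteasome subunit: H2-K1 read 2305, 2145, 2237, 2197 and 2114 CPM in EDL and 1543, 1501, 1276, 1472 and 1363 CPM in soleus (-0.62 ± 0.049, adjusted p = 1.4e-10). All soleus values of H2-K1 lay below the lowest EDL value, furthest in library 3. The peptide transporter Tap2 (-0.47 ± 0.042), the immunoproteasome subunit Psmb8 (-0.51 ± 0.039) and B2m (-0.28 ± 0.042) fell with it. H2-K1 and H2-D1 are close relatives, and how reads were shared between them is uncertain. The class II gene H2-Ab1 (0.96 ± 0.18) and the class II chaperone Cd74 (1.22 ± 0.19) rose, to 7.97 and 13.8 CPM in soleus. Immune markers rose in the same libraries (summed medians 41.9 and 375 CPM), and their part in the chemokine and class II results was not tested. Exons overlap between Cxcl16 and Zmynd15, between Igtp and Irgm2 and between Gbp4 and Gbp9, so the split of these counts is uncertain.

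Matrix genes were rearranged within families. Basement membrane genes fell in 8 of 20 and rose in 4. Col18a1, the source of endostatin, read 169, 159, 176, 174 and 155 CPM in EDL and 66.4, 86.1, 95.6, 73.3 and 87.9 CPM in soleus (-1.02 ± 0.097, adjusted p = 3.7e-09). Col18a1 thus separated the muscles in every library, least in soleus library 3. Among laminins Lamb1 rose (0.95 ± 0.062) while Lamb2 fell (-0.57 ± 0.042), and Lama4 rose (0.34 ± 0.052). Fn1, fibronectin, read 109, 96.5, 93.7, 86.1 and 91.6 CPM in EDL and 185, 236, 273, 239 and 293 CPM in soleus (1.37 ± 0.087, adjusted p = 2.1e-12). No soleus library reached into the EDL range of Fn1. The type IV collagen genes Col4a1 and Col4a2 did not pass (0.08 ± 0.076 and -0.03 ± 0.060). Integrins fell in 6 of 14, Itga3 (-0.64 ± 0.087), Itga6 (-0.31 ± 0.055) and Itga5 (-0.32 ± 0.048) among them. Tissue inhibitors of metalloproteinases Timp2, Timp3 and Timp4 fell (-0.60 ± 0.11, -0.51 ± 0.058 and -0.42 ± 0.086). Among proteases that rose, Ctss (5.59 ± 0.21), Adam8 (4.82 ± 0.30) and Mmp12 (2.84 ± 0.33) are made by myeloid cells, whose markers rose as given above. Of the secreted growth factors, Igfbp4, which binds insulin-like growth factor, read 196, 182, 194, 183 and 184 CPM in EDL and 71.4, 73.5, 78.5, 67.6 and 81.1 CPM in soleus (-1.33 ± 0.075, adjusted p = 1.9e-13). For Igfbp4 the ranges were apart, and soleus library 4 stood furthest from EDL. Igfbp3 (-0.39 ± 0.050) and Igfbp7 (-0.39 ± 0.053) fell as well. Hbegf, an EGF receptor ligand, rose by 0.81 ± 0.072, and Kitl, the ligand of the receptor Kit, by 0.26 ± 0.057. Fibroblast markers were higher in soleus, above all in libraries 3 and 5, and Fn1 is also made by such cells; their part was not tested. In soleus libraries 1, 2 and 4 alone Fn1 rose by 1.21 ± 0.080 and Col18a1 fell by 1.15 on the log2 scale. Exons overlap between Col4a1 and Col4a2, between Timp3 and Syn3, between Timp4 and Syn2 and between Igfbp7 and Polr2b, so the split of these counts is uncertain.

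**Figure D3:**
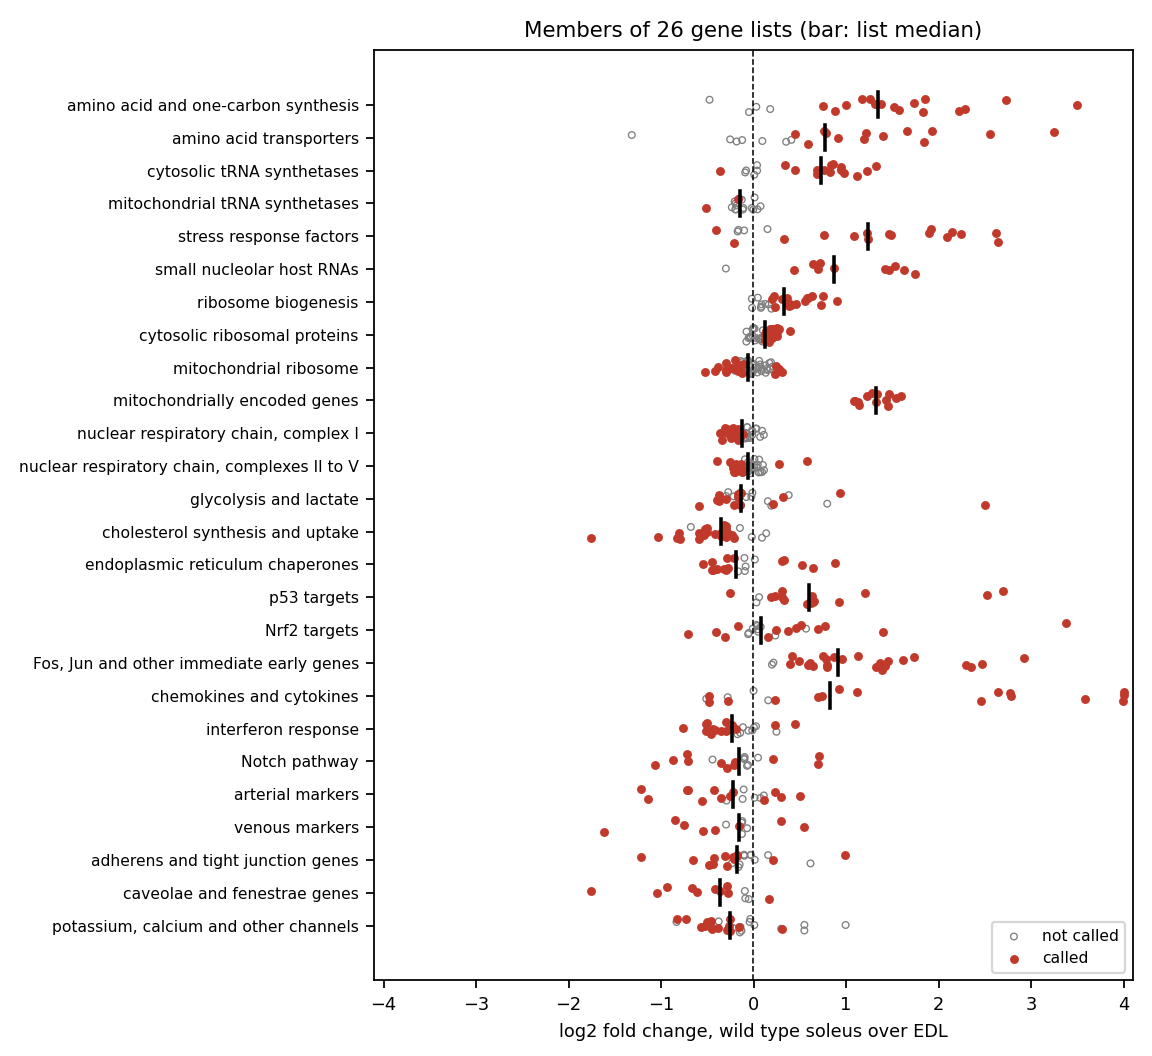
Log2 fold change of soleus over EDL in wild type (horizontal) for members of 26 gene lists, 1 point per tested gene, filled where the gene passed the test, with the list's median as a bar and the median of all 13971 tested genes as a dashed line. Points beyond 4 on either side are drawn at the edge. The median was 1.34 for amino acid synthesis, 1.33 for mitochondrially encoded genes and -0.36 for cholesterol genes.

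Mitochondrially encoded genes rose, while nuclear genes for mitochondria fell more often than they rose. All 13 protein-coding genes of the mitochondrial genome rose (log2 1.09 to 1.59). All annotated genes of that genome together made up 5.74% to 6.16% of counts in EDL and 11.4% to 14.2% in soleus. Of 36 nuclear genes of complex I, 16 fell and none rose (median -0.12). Ndufa8 read 153, 161, 153, 145 and 156 CPM in EDL and 123, 128, 109.9, 124 and 114 CPM in soleus (-0.36 ± 0.046, adjusted p = 7.8e-07). Each soleus value of Ndufa8 was below each EDL value, with library 3 the lowest. Of 38 nuclear genes of complexes II to V, 13 fell and 2 rose (median -0.06). The 2 that rose were Uqcrq, a subunit of complex III (145 to 217 CPM, 0.58 ± 0.043), and cytochrome c, Cycs (0.27 ± 0.060). Genes of the citric acid cycle fell in 7 of 23, 4 to 6 when any 1 library was left out, and rose in 2: Sdha fell by 0.20 ± 0.047 on the log2 scale, Pcx, pyruvate carboxylase, rose (0.58 ± 0.13), and citrate synthase, Cs, did not pass (0.02 ± 0.046). With library sizes counted without mitochondrially encoded genes and without the most abundant gene, 16 complex I genes fell and 0 rose. Normalisation factors were recomputed for those sizes, so this run could change little and does not test the part of the mitochondrial share. Muscle fibre RNA, itself rich in mitochondrial transcripts, was higher in soleus as given above, and its part in the mitochondrial share was not tested.

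Glycolysis genes fell more often than they rose, and fatty acid genes moved both ways. Glycolysis and lactate genes fell in 10 of 27 and rose in 4 (median -0.14). Eno1, enolase, read 585, 601, 618, 607 and 635 CPM in EDL and 399.9, 405, 424, 396 and 398 CPM in soleus (-0.59 ± 0.043, adjusted p = 3.1e-11). The muscles did not share any part of their ranges of Eno1, though soleus library 3 was nearest to EDL. Lactate dehydrogenase A, Ldha (-0.38 ± 0.043), hexokinase 1, Hk1 (-0.39 ± 0.045), and Tpi1 (-0.30 ± 0.043) fell, and Pgk1 rose (0.32 ± 0.054). Hexokinase 2, Hk2, rose from 0.748 to 4.13 CPM (2.50 ± 0.33), and the activator Pfkfb3, known for its role in sprouting, did not pass (-0.14 ± 0.13). Eno1 and Ldha have near-identical copies in the genome and are uncertain. Fatty acid uptake genes had no common direction, 8 lower and 7 higher of 26. Cd36, the main fatty acid receptor of capillaries, read 3971, 4126, 4034, 3959 and 4168 CPM in EDL and 4203, 3862, 3607, 3984 and 3596 CPM in soleus, did not pass and had overlapping groups. Fabp4 did not pass (-0.13 ± 0.064), Gpihbp1, which anchors lipoprotein lipase, fell (-0.28 ± 0.058), the transporter Slc27a3 fell (-1.03 ± 0.11), and Plin2, of lipid droplets, rose (1.05 ± 0.055). Fatty acid oxidation genes fell in 8 of 26 and rose in 3, and 5 and 1 did with soleus libraries 1, 2 and 4 alone. Decr1 (-0.52 ± 0.088) and Hadh (-0.32 ± 0.086) fell, the carnitine transferase Cpt1a did not pass (-0.17 ± 0.082), and the mitochondrial thioesterase Acot2 read 24.9, 22.2, 22.4, 19.9 and 18.4 CPM in EDL and 67.5, 62.2, 81.97, 66.4 and 77.05 CPM in soleus (1.73 ± 0.10, adjusted p = 8.3e-13). In Acot2 even soleus library 2, the lowest of the 5, was above all EDL libraries. Exons overlap between Tpi1 and Spsb2, so the split of their counts is uncertain.

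Cholesterol genes fell together, with 21 of 27 lower and none higher (median -0.36). The factor SREBP2 drives the synthesis genes when sterols run low. Idi1, an isomerase of isoprenoid synthesis, read 38.2, 32.4, 27.9, 34.8 and 30.98 CPM in EDL and 18.1, 19.4, 17.997, 18.8 and 18.3 CPM in soleus (-0.83 ± 0.10, adjusted p = 3.3e-07). Idi1 was below the EDL range in all 5 soleus libraries, with library 3 the lowest. Cyp51 (-0.79 ± 0.12), Fdft1 (-0.52 ± 0.083) and Mvk (-0.51 ± 0.094) fell. Hmgcs1, which opens the pathway, fell by 0.23 ± 0.061 on the log2 scale, a call lost with soleus libraries 1, 2 and 4 alone (adjusted p = 0.068). The efflux gene Abcg1 did not pass (-0.02 ± 0.053). TCACNCCAC, a form of the sterol response element, was found on either strand in 1 of 19 genes of the list with a RefSeq promoter window and in 1.38% of tested genes. That gene was Hmgcs1, whose stretch upstream of the annotated start is shown with the match in capitals.
Hmgcs1 (GRCm38.p6 chr13:119690184-119690252, plus strand): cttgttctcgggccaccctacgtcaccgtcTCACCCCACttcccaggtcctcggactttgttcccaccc
In Atf4 ECKO the list had a median of 0.03, and the interaction was -0.36 ± 0.088 for Hmgcs1. Exons overlap between Cyp51 and Akap9 and between Fdft1 and Ctsb, so the split of these counts is uncertain.

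Genes that answer low oxygen, glucocorticoids and time of day showed few common changes. Hypoxia targets rose in 8 of 25 and fell in 3 (median -0.00094). Ankrd37 (1.93 ± 0.17), Bhlhe40 (0.55 ± 0.10) and Bnip3 (0.47 ± 0.061) rose, P4ha2 fell (-0.60 ± 0.075), and Egln1, Pdk1, Kdm3a and Slc2a1 did not pass (-0.10 ± 0.098, -0.02 ± 0.15, 0.12 ± 0.079 and 0.15 ± 0.064). Glucocorticoid-responsive genes rose in 7 of 19 and fell in 3. Sult1a1, a sulfotransferase, fell from 509 to 282 CPM (-0.85 ± 0.10), Sgk1 rose (0.49 ± 0.065), and the direct targets Fkbp5, Tsc22d3 and Per1 did not pass (-0.36 ± 0.22, -0.14 ± 0.067 and 0.11 ± 0.14). Of 19 clock genes 3 rose and none fell. The core gene Arntl (0.43 ± 0.21) and its repressors Nr1d1 (-0.13 ± 0.12), Per2 (0.18 ± 0.14) and Cry1 (0.01 ± 0.072) did not pass, and Nfil3, which is also a stress target, rose (1.74 ± 0.14). In a fit of the 10 wild type libraries alone 6 clock genes rose and 3 fell. Retinoic acid genes fell in 6 of 11, and in 2 with soleus libraries 1, 2 and 4 alone. Exons overlap between Ankrd37 and Ufsp2, between Sult1a1 and Sgf29 and between Nr1d1 and Thra, so the split of these counts is uncertain.

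Ranked by size, with the markers of other cell types left out, the largest rises were mostly those of genes made by myeloid cells. Among such called genes of at least 10 CPM in 1 muscle, the 15 largest rises included Ccl6, Wfdc17, Gpnmb, Saa3, Ctss, Cd53, Clec4d, Fcgr3, Ccl9, Adam8, Ms4a6d and Itgb2. Ctss, a lysosomal protease of antigen-presenting cells, read 1.77, 1.59, 1.08, 1.59 and 1.09 CPM in EDL and 62.2, 75.6, 72.1, 69.2 and 64.6 CPM in soleus. The groups of Ctss did not overlap, and soleus library 1 came closest to the EDL range. Ccl6 had 5 counts over the 5 EDL libraries and Wfdc17 6, and they stood at 21.2 and 11.5 CPM in soleus. Ptprc, which encodes the CD45 that the sort excluded, stood at 0.133 CPM in EDL and 2.52 CPM in soleus. The remaining 3 of the 15 were Cth, Hmox1 and Adm2, described above. The 15 largest falls included Spon2, a secreted matrix protein, at 18.3, 14.5, 15.1, 16.3 and 15.7 CPM in EDL and 1.30, 2.31, 2.30, 1.63 and 1.58 CPM in soleus (-3.13 ± 0.22, adjusted p = 1.6e-11). All soleus values of Spon2 lay below the lowest EDL value, furthest in library 1. Penk, the enkephalin precursor, read 16.2, 12.6, 14.999, 14.3 and 16.3 CPM in EDL and 6.26, 5.89, 5.02, 4.71 and 5.82 CPM in soleus (-1.43 ± 0.24, adjusted p = 4.7e-05). Penk thus separated the muscles in every library, least in soleus library 1. Fgf9, a growth factor, fell from 20.95 to 8.77 CPM (-1.25 ± 0.22), Slc16a4, a monocarboxylate transporter, from 10.6 to 3.62 CPM (-1.53 ± 0.22) and Gpr182, an atypical chemokine receptor of endothelium, from 25.1 to 9.73 CPM (-1.38 ± 0.11). Tubb3 (-1.27 ± 0.11), Clca2 (-1.26 ± 0.14), Fam167b (-1.26 ± 0.12), Kirrel3 (-1.79 ± 0.20) and Syt15 (-1.67 ± 0.14) fell to a like degree. Exons overlap between Gpr182 and Zbtb39, so the split of their counts is uncertain.

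The same comparison called fewer genes in Atf4 ECKO, from libraries of 7995883 to 21014832 counts, and some genes moved the opposite way there. In ECKO 2572 genes differed between the muscles (18.4%), and 790 genes passed in the same direction in both genotypes, which is 30.7% of those called in ECKO and 17.5% of those called in wild type. Of the 2295 wild type rises 395 were falls in ECKO (17.2%), where 10.1% of all tested genes fell. Of the 2225 wild type falls 171 were rises there (7.69%), which is below the 8.31% of all tested genes that rose in ECKO. The interaction passed for 3166 genes (22.7%). Among the genes with the smallest adjusted p were Gdf15, a stress-induced cytokine (3.84 ± 0.11, adjusted p = 1.1e-18), Hmox1 (3.81 ± 0.12), Asns (1.59 ± 0.071), Hspa9 (1.55 ± 0.068), Sqstm1 (1.64 ± 0.076), Ppp1r15a (1.89 ± 0.065), Lgals3, galectin 3 (2.33 ± 0.11), and Ifrd1, a transcriptional cofactor (1.75 ± 0.081). Plvap (-1.07 in ECKO), Gkn3 (-1.45), Slc27a3 (-0.99) and Col18a1 (-1.11) passed in the same direction in both genotypes, and their interactions did not pass (0.02 ± 0.063, 0.31 ± 0.23, -0.03 ± 0.15 and 0.09 ± 0.14). The genotypes also differed in sex-linked RNA, since Xist was at most 0.274 CPM in wild type libraries and at least 17.9 CPM in ECKO libraries. Within ECKO, Xist ranged from 59.2 to 66.2 CPM in EDL and from 17.9 to 81.4 CPM in soleus. The sum of 4 Y-linked genes ranged from 0.595 to 1.54 CPM in ECKO EDL and from 0.931 to 65.5 CPM in ECKO soleus, so the ECKO muscles differed in sex-linked RNA as well. Myeloid RNA differed too, since 12 myeloid genes summed to 278 to 362 CPM in wild type and 38.2 to 87.2 CPM in ECKO soleus. Sex-linked RNA went with genotype in every library, so its part in the interactions cannot be told apart from that of the deletion. The part of myeloid RNA in them was not tested. Exons overlap between Ifrd1 and Gm7008, so the split of their counts is uncertain.

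**Figure D4:**
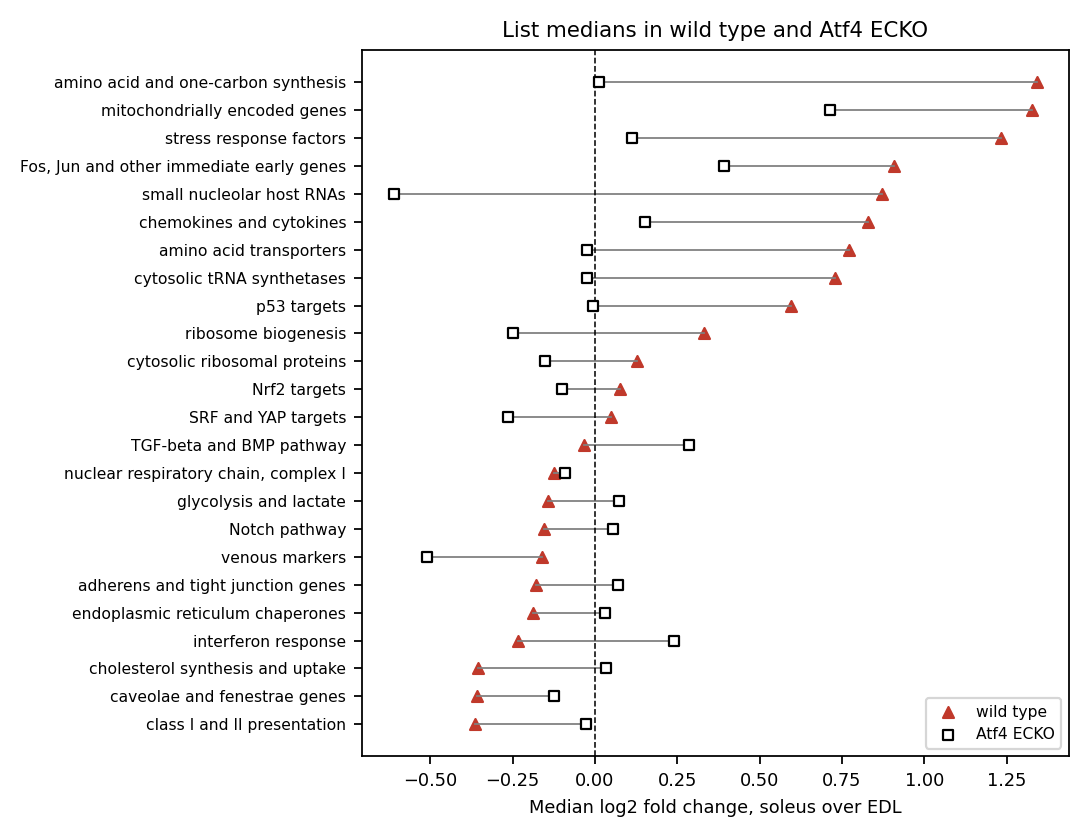
Median log2 fold change of soleus over EDL for 24 gene lists in wild type (triangles) and in Atf4 ECKO (squares), joined by a line, with 0 dashed; each genotype rests on its own 10 libraries. The small nucleolar host RNAs had a median of 0.87 in wild type and -0.61 in ECKO, and the mitochondrially encoded genes 1.33 and 0.71.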

How the data were processed

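RNA of sorted endothelial cells was sequenced in 20 libraries, of which the 10 wild type libraries make up the comparison described above. The deposited tables give, per transcript and library, an estimated count and a TPM value; kallisto and DESeq2 are named in the submitters' processing notes, without versions or roles. Those notes name the human build GRCh38.p13, whereas the deposited transcript identifiers are those of mouse. Estimated counts are reads shared out over transcripts by a model, so genes with overlapping exons or near-identical copies may have exchanged counts, and how strand was handled is not stated. The deposited TPM values were not used for any test.

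Of 129439 deposited transcripts 128643 matched GENCODE M21 (GRCm38), and their estimated counts were summed to 42374 genes and rounded. Transcripts without a match held 0.182% to 0.221% of counts and were left out. Library totals were 7995883 to 21673753 over all 20 libraries. Genes passing filterByExpr (13971) were fitted in all 20 libraries with edgeR 4.0.16 (R 4.3.3): TMM factors, group means, quasi-likelihood test, Benjamini-Hochberg adjustment over all tested genes, threshold 0.05. The dispersion estimated within groups corresponded to a coefficient of variation of 8.17% in wild type EDL and 10.1% in wild type soleus. A log2 fold change has its SE from the same fit, and CPM is per 1000000 counts of normalised library size. Changes with an adjusted p below 0.05 are said to have risen or fallen, or to have passed. For 2 single genes and the mitochondrial share an exact permutation test over libraries was run. The fit was tested on simulated data. No 2 libraries of a group matched within counting noise, so none was taken for a second deposit of another. The results were also computed with DESeq2 1.42.0, with limma-voom (limma 3.58.1), with RLE factors, without the low-count filter, on wild type libraries alone, with the replicate number as a block, with an offset for transcript length, with library sizes over nuclear genes, without each wild type library in turn and, added after seeing the data, with soleus libraries 1, 2 and 4 alone.

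The comparison and the gene lists were chosen with earlier results of these data known. Named genes are Atf4 and Atf3, the 15 largest called rises and falls at a mean of at least 10 CPM in 1 muscle (ordinary symbols, other cell types' markers left out), up to 8 called members per list by adjusted p, called members moving against the majority, the 2 most abundant members, the smallest interaction p-values, and cell type markers. Stc2, Aldh1l2, Trp53, Gclc, Hmgcs1 and most genes named as not passing were chosen outside this rule after their values were seen. Some genes that the rule names are not reported here. Promoter letters were searched on both strands in RefSeq windows (GRCm38.p6).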

Additional observations from a re-analysis of the deposited data

Results flagged for a closer look

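Of 118 groups of 5 libraries examined for a library far from the others, 6 had one, and chance gives about 1 in 20 groups. Chac1 was lowest in soleus library 1 at 46.5 CPM. Gadd45a was highest in EDL library 5 at 17.0 CPM, Hmox1 in EDL library 4 at 169 CPM and Mt1 in EDL library 1 at 82.8 CPM, and all 3 stayed below every soleus library. The summed Schwann cell markers were lowest in soleus library 4 at 46.0 CPM, and the summed erythroid markers were highest among EDL libraries in library 5 at 4004 CPM.

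For 20 named genes the difference between soleus and EDL was itself unlike in wild type and Atf4 ECKO by the interaction of muscle and genotype, given here as log2 values of wild type minus ECKO (edgeR quasi-likelihood test). Among early response, mechanosensitive and coagulation genes it was 4.45 for Ankrd1, 2.63 for Ccn2, 1.68 for Procr, 1.53 for Thbs1 and 1.64 for Plaur. Among stress and proteostasis genes it was 3.84 for Gdf15, 3.81 for Hmox1, 1.59 for Asns, 1.55 for Hspa9, 1.64 for Sqstm1 and 1.89 for Ppp1r15a. The host RNAs Gas5 and Snhg15 had 1.44 and 2.67, the nucleotide gene Ctps 1.09, and Lgals3 and Ifrd1 2.33 and 1.75. Negative values were those of Tgfbr3 (-1.21), Tgfbr2 (-0.64), Id1 (-0.93) and Hmgcs1 (-0.36). Sex-linked and myeloid RNA also differed between the genotypes, as described above. The part of sex-linked differences cannot be told apart from that of the deletion, and the part of myeloid RNA was not tested.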

How the results depend on the processing

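The number of genes at least 2-fold higher in soleus was 629, and 960 without a filter on low counts, where genes of few counts enter; no other count over all tested genes moved by more than 1.5 times under any alternative run. Leaving out 1 wild type library at a time gave 2085 to 2213 genes higher, 1955 to 2081 lower, 587 to 672 at least 2-fold higher, 121 to 137 at least 2-fold lower and 2927 to 3086 with an interaction. The soleus minus EDL difference was then 283 to 297 CPM for Atf4, 237 to 269.8 CPM for Atf3 and 6.501 to 7.209 percentage points for the mitochondrial share. With soleus libraries 1, 2 and 4 alone, a choice made after seeing the data, 2006 genes were higher and 1836 lower. Of 263 named genes called in wild type none reversed; 3 lost the call when 1 library was left out (Edn1, Notch1 and Sesn1), 2 with soleus libraries 1, 2 and 4 (Hmgcs1 and Thbs4), and 1 each under limma-voom (Thbs4), with the length offset (Tfrc) and without a filter on low counts (Aco1). Of 75 list medians 8 changed sign under some alternative, none larger than 0.16 in size.

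Soleus and EDL libraries of the same replicate number did not deviate together (r of 0.0467, -0.0494, 0.00272, 0.0225 and -0.0438 for numbers 1 to 5), and only number 1 matched best with its own, so the numbers were not treated as pairs. With the replicate number as a block 2223 genes were higher, 2165 lower, 614 at least 2-fold higher and 121 at least 2-fold lower, and 3065 had an interaction.

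The depth of the shallowest wild type library limits genes of a few CPM, such as Cbs or Mki67, for which a missing call does not show equal levels. The RNA of immune, fibroblast, muscle fibre, tendon and red cells differed between the muscles and cannot be told apart here from changes within endothelial cells.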

Other observations

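Genes of sprouting tip cells, the leading cells of a growing vessel, rose in 10 of 17 and fell in 3 (median 0.31). Apart from the ligands described above, Nid2, a basement membrane protein, rose by 0.74 ± 0.086. Among the members that fell were Dll4, described above, and the retinol-binding gene Rbp7 (-0.40 ± 0.093). Guidance genes moved both ways: of 23 semaphorin, plexin, netrin and Slit receptor genes 6 fell and 3 rose (median -0.07). All 3 rises and 0 of the falls were at least 2-fold, and 0 to 3 genes rose when any 1 library was left out. Plxnb2 read 38.9, 35.1, 39.2, 37.9 and 40.9 CPM in EDL and 16.4, 17.5, 25.5, 19.1 and 21.4 CPM in soleus (-0.93 ± 0.090, adjusted p = 5.7e-09). No soleus library reached into the EDL range of Plxnb2. Robo4, an endothelial Slit receptor (-0.31 ± 0.053), and Plxnd1, the plexin of endothelium (-0.25 ± 0.064), fell. Of the ephrin genes, Efnb2, the arterial ephrin, fell (-0.22 ± 0.065) with the receptor Ephb4, and Epha2 rose (0.27 ± 0.063). In the Wnt pathway 4 of 13 genes fell and 1 rose, and 0 or 1 rose when any 1 library was left out. Tcf7l1, a transcription factor of the pathway, fell (-0.44 ± 0.099), and β-catenin, Ctnnb1, did not pass (0.01 ± 0.061). Exons overlap between Nid2 and Rtraf and between Ctnnb1 and Ulk4, so the split of these counts is uncertain.

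Receptors and regulators of G protein signalling were evenly divided, with 8 lower and 7 higher of 30. Rgs16, which speeds the switching off of G proteins, read 30.3, 22.1, 26.2, 21.1 and 22.8 CPM in EDL and 66.8, 63.6, 51.4, 63.5 and 52.3 CPM in soleus (1.29 ± 0.087, adjusted p = 6.6e-12). For Rgs16 the ranges were apart, and soleus library 1 stood furthest from EDL. The thrombin receptor F2r rose (0.73 ± 0.071), and Rgs3 (-0.39 ± 0.044) and the lysophosphatidic acid receptor Lpar6 (-0.39 ± 0.056) fell. Rgs5 fell as well (-0.84 ± 0.093), a gene that mural cells also make in quantity; the mural sum fell in the same libraries, and its part was not tested. Nucleotide synthesis genes rose in 5 of 22, Adss, of AMP synthesis (59.2 to 102 CPM, 0.78 ± 0.051), and Ctps, which makes CTP (0.39 ± 0.087), among them, and fell in 2, or 0 to 3 when any 1 library was left out. In soleus of Atf4 ECKO Ctps fell (-0.70), and its interaction passed (1.09 ± 0.12). Exons overlap between Lpar6 and Rb1, so the split of their counts is uncertain.

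Among markers of other cells in the preparations, those of satellite cells, the muscle stem cells, were higher in soleus in 3 of 6, but in 1 with soleus libraries 1, 2 and 4 alone, and in 1 without any one of soleus libraries 3 and 5 and EDL libraries 1 and 5. Markers of Schwann cells were higher in 2 of 5, and in 1 with soleus libraries 1, 2 and 4 alone. Markers of slow fibres were higher in 7 of 8 and lower in 1 (0 or 1 lower when any 1 library was left out), and markers of fast fibres higher in 6 of 12 and lower in 2. Lymphatic endothelial markers were higher in 1 of 6 and lower in 1, or 1 to 2 higher and 0 to 1 lower when any 1 library was left out (summed 157 to 179 CPM in EDL, 159 to 186 CPM in soleus).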
